A study of Homo sapiens with 15 samples.

Results

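The genes of urokinase and plasminogen activation were followed in monolayers of Caco-2, a cell line from a human colorectal adenocarcinoma that takes on enterocyte features in culture. The 4 genes were PLAUR, PLAU, PLAT and SERPINE2, which code for the urokinase receptor, urokinase (uPA), tissue-type plasminogen activator (tPA) and protease nexin 1. They were taken by symbol from the 69215 genes listed, and the set was chosen with earlier results of these data known. Of the 4 genes, 3 passed the filter on low counts. PLAT did not pass and was described by library. The filter asked for about 1.13 CPM in at least 5 libraries. PLAUR met it through the exposed groups alone (5 PS80, 5 PS20 and 0 control libraries) and PLAU through PS80 (5, 1 and 1), the groups where they were highest, while SERPINE2 met it in 3 PS80, 5 PS20 and 5 control libraries. Of 15 libraries, 5 came from monolayers exposed to polysorbate 80 (PS80), 5 from monolayers exposed to polysorbate 20 (PS20) and 5 from unexposed control monolayers. Each polysorbate was given at 0.05% for 24 h, and the basis of that percentage is not given in the sources used here. PS80 and PS20 are nonionic surfactants used as food emulsifiers, with the same polyoxyethylene sorbitan head and a different fatty acid, oleate in PS80 and laurate in PS20. The study asked how these emulsifiers affect the gut epithelial barrier.

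Plasminogen is a circulating proenzyme that urokinase or tPA cleaves to plasmin, a broad protease that degrades fibrin and other matrix proteins and activates growth factors and other proteases. The urokinase receptor, a protein held on the membrane by a glycolipid anchor, gathers urokinase at the cell surface, while serpins such as protease nexin 1 trap the active enzymes, and the complexes are taken up by receptors of the LDL receptor family. In gut epithelium and in colorectal tumours the system is known for its part in wound closure, cell migration and invasion.

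All 4 genes were scarce. Levels are given in CPM, counts per 1000000 counts of the library after trimmed mean of M-values (TMM) scaling. Over the 15 libraries PLAUR averaged 1.73 CPM, SERPINE2 1.72, PLAU 1.17 and PLAT 0.251, against a median of 29.1 CPM over the 12769 genes tested. Per kilobase of exon, the mean levels were 0.398 CPM per kb for PLAU, 0.388 for PLAUR, 0.192 for SERPINE2 and 0.0323 for PLAT. These rest on 227, 358, 297 and 46 counts in all 15 libraries, so that counting error is a large part of each value. Total counts were 6769409 to 42271053 in PS80 libraries, 6749086 to 17251564 in PS20 libraries and 4183096 to 13616301 in control libraries. The labels do not say whether libraries of a group came from separate cultures, so p-values measure the spread between these libraries.

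PLAUR (ENSG00000011422.12) lies on chromosome 19, bases 43646095 to 43670547 of the minus strand of GRCh38, with 10 merged exons. PLAU (ENSG00000122861.16) lies on chromosome 10, bases 73909177 to 73917496 of the plus strand, with 13 merged exons. Of its exonic bases, 31.0% also lie in exons of the antisense gene C10orf55. Counting used no strand option, so strand did not tell reads of these genes apart there. The level per kilobase of PLAU divides by all 2949 exonic bases. Any reads left uncounted in the shared part would lower that level and shift the ratios that use it, which was not tested. C10orf55 itself had 6 counts in 15 libraries. SERPINE2 (ENSG00000135919.14) lies on chromosome 2, bases 223975045 to 224039318 of the minus strand, with 13 merged exons. PLAUR and SERPINE2 shared no exonic base with another annotated gene.

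Promoter sequence is shown for the 3 tested genes because they did not move alike between the exposures, and transcription factors of the AP-1 and ETS families are known activators of the urokinase receptor and urokinase genes. RefSeq windows of the 250 bases before an annotated start (GRCh38.p14) were searched on both strands for an AP-1 motif, TGANTCA, an ETS motif, AGGAAG, and a GC box, GGGCGG. Of 35116 windows of that length, 6.57% held the AP-1 motif, 28.7% the ETS motif and 42.6% the GC box. PLAU and SERPINE2 have 2 windows each, and the 1 with a transcript start within 50 bases in GENCODE release 29, an older release than that of the counts, is described first. Of these windows only that of PLAU was marked as the start of a principal transcript, and those of PLAUR and SERPINE2 were not. The second SERPINE2 window (chr2:224038641-224038890) lies nearer the annotated 5′ end of that gene, base 224039318. The windows of the 3 genes are thus not of like standing. The PLAUR window held an AP-1 motif 186 bases and an ETS motif 15 bases before the start. The PLAU window held an ETS motif 221 bases and GC boxes 66, 51 and 40 bases before the start, and no AP-1 motif. The SERPINE2 window held a GC box 50 bases before the start, and neither other motif. The second PLAU window held none of the 3 motifs, and the second SERPINE2 window held GC boxes 230 and 183 bases before its start. Sequence beyond these windows of 250 bases was not searched. A motif missing from a window is therefore no sign that the gene lacks control by that family. For PLAUR, whose window lies inside an exon of longer annotated transcripts, the stretch of 30 bases around the AP-1 motif is printed (chr19:43670338-43670367, minus strand), for PLAU the part of the window outside annotated exons (chr10:73910882-73911103, plus strand) and for SERPINE2 the whole window (chr2:224031479-224031728, minus strand). All run 5′ to 3′, and capitals mark the motif letters.
PLAUR: atcacaactccaTGAGTCAgggccgagcca
PLAU: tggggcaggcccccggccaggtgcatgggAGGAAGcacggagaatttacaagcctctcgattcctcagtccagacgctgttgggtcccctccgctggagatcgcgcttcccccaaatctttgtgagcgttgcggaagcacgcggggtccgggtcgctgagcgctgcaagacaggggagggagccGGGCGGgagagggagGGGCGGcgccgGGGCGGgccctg
SERPINE2: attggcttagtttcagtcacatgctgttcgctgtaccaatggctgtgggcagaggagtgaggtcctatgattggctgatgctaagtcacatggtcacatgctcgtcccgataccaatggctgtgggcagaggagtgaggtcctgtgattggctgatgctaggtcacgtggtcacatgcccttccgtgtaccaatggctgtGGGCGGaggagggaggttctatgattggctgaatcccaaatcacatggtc

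The urokinase receptor gene was the 1 member that was higher under both polysorbates. PLAUR stood at 3.44, 3.12, 2.53, 1.82 and 1.64 CPM in PS80 replicates 1 to 5 and at 1.63, 2.43, 2.42, 1.79 and 1.44 CPM in PS20 replicates 1 to 5. Control replicates 1 to 5 had 0.858, 0.526, 0.955, 0.513 and 0.820 CPM. Every exposed library lay above every control library, while the PS80 and PS20 libraries overlapped. The group means were 2.51 ± 0.786 CPM with PS80, 1.94 ± 0.459 CPM with PS20 and 0.734 ± 0.202 CPM in control (SD, n = 5 each).

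In the quasi-likelihood test of edgeR, with p adjusted by Benjamini-Hochberg over all genes, PLAUR rose 3.72-fold with PS80 (log2 fold change 1.90 ± 0.30 SE, 95% interval 1.27 to 2.52, adjusted p = 7.84e-05). With PS20 it rose 2.93-fold (log2 fold change 1.55 ± 0.32 SE, interval 0.88 to 2.22, adjusted p = 4.82e-04 in the same test). Both comparisons use the same 5 control libraries. At the same threshold, 33.4% of all tested genes were called for PS80 against control and 48.3% for PS20 against control, and 19.6% and 32.5% had groups without overlap. Counting higher genes alone, 17.4% were called for PS80 and 24.4% for PS20, and 10.3% and 16.2% lay above control without overlap. PLAUR was the 1 member called by edgeR in each comparison with control, and since it entered the test through its high groups, that count is not used as support. PLAUR did not differ by test between PS80 and PS20 (log2 difference 0.35 ± 0.23 SE, edgeR adjusted p = 0.264), and the interval of -0.14 to 0.83 leaves room for either being higher.

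Libraries also differed by replicate number. Deviations from the group means, taken across genes between libraries of different groups, correlated on average by 0.153 between replicates 1 and 2, by 0.0952 among replicates 3 to 5, and by -0.121 between a library of each set. The labels do not say what separates these sets. Within replicates 1 and 2, the log2 fold change of PLAUR was 2.32 with PS80 and 1.65 with PS20. Within replicates 3 to 5 it was 1.44 with PS80 and 1.53 with PS20, and each of these 4 values passed the test. The difference of PS80 from PS20 was 0.67 in replicates 1 and 2 and -0.09 in replicates 3 to 5. The 2 highest PLAUR values of the study were PS80 replicates 1 and 2.

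**Figure D1:**
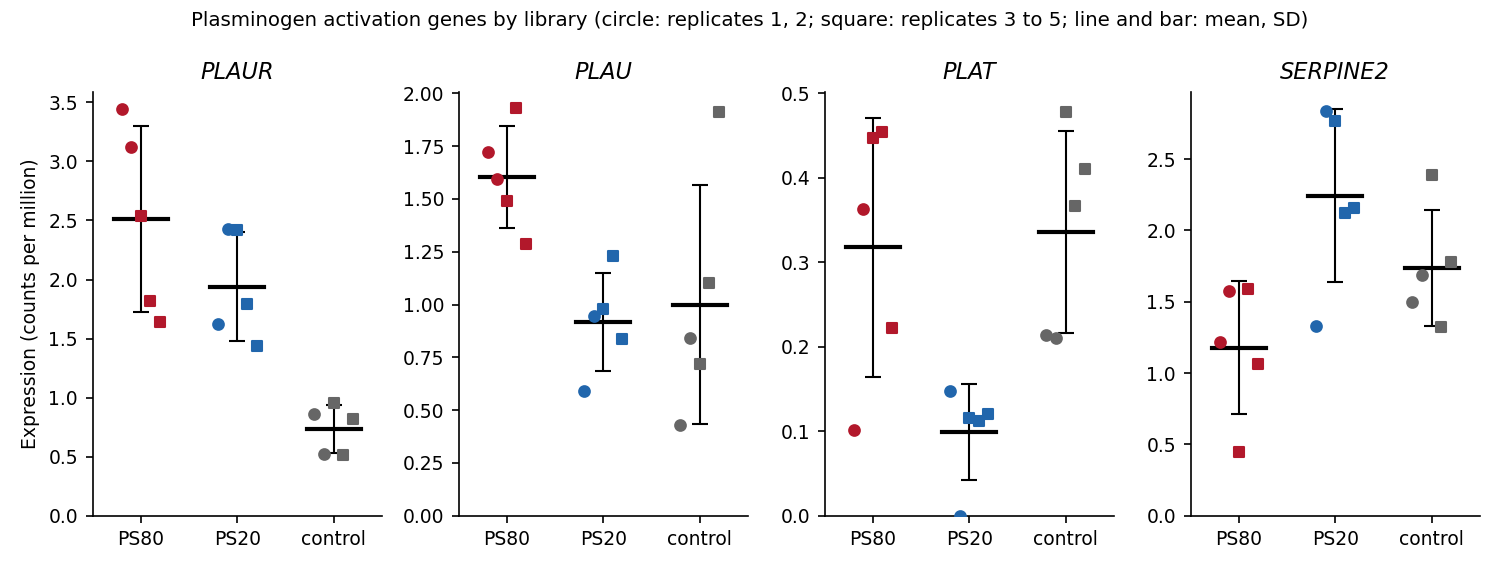
Expression of the 4 plasminogen activation genes in CPM (linear axes from 0) in each library, with PS80, PS20 and control side by side; points are libraries (circles for replicates 1 and 2, squares for replicates 3 to 5), lines are group means and bars are SD. PLAUR lies above all control libraries in all 10 exposed libraries, PLAU is highest with PS80 but for control replicate 5, PLAT is lowest with PS20, and SERPINE2 is lower with PS80 than with PS20.

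The urokinase gene differed between the polysorbates and not, by test, from control. PLAU stood at 1.72, 1.60, 1.49, 1.93 and 1.29 CPM in PS80 replicates 1 to 5, at 0.591, 0.945, 0.979, 1.23 and 0.839 CPM in PS20 replicates 1 to 5, and at 0.429, 0.842, 0.716, 1.10 and 1.91 CPM in control replicates 1 to 5. All PS80 libraries lay above all PS20 libraries, but control replicate 5 lay above every PS80 library except replicate 4. The means were 1.61 ± 0.242 CPM with PS80, 0.917 ± 0.232 CPM with PS20 and 1.0001 ± 0.565 CPM in control (SD, n = 5 each).

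PLAU was 1.67-fold higher with PS80 than with PS20 (log2 difference 0.74 ± 0.27 SE, interval 0.19 to 1.29, edgeR adjusted p = 0.0341). Of all tested genes 35.5% were called in that comparison, 18.2% as higher with PS80, and 22.7% had groups without overlap, 11.7% as higher. PLAU passed the filter on low counts through the PS80 libraries, where it is high, so its being tested is tied to this difference. The call rests on few counts, from 10 to 66 per PS80 library and from 4 to 17 per PS20 library. It was lost when any 1 of PS20 replicates 1, 2, 3 and 5 or PS80 replicates 1, 2 and 4 was left out, with log2 differences of 0.65 to 0.77 and edgeR adjusted p of 0.0556 to 0.0744. It was also lost with no filter on low counts (edgeR adjusted p = 0.115) and in DESeq2 (adjusted p = 0.0687). Against control, the log2 fold change was 0.56 ± 0.27 SE with PS80 (interval -0.00 to 1.13, edgeR adjusted p = 0.118) and -0.18 ± 0.32 SE with PS20 (edgeR adjusted p = 0.671). Without control replicate 5, the PS80 value was 0.87 and passed the test (edgeR adjusted p = 0.0217), and the PS20 value was 0.13 (edgeR adjusted p = 0.825). The PS80 value was 1.22 within replicates 1 and 2 and 0.22 within replicates 3 to 5, and neither passed (edgeR adjusted p = 0.0995 and 0.681).

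PLAT, the gene of the second plasminogen activator, was near the limit of detection. It (ENSG00000104368.19) lies on chromosome 8, bases 42174718 to 42207709 of the minus strand, with 16 merged exons, none of them shared with another gene. It had 1, 15, 3, 4 and 5 counts in PS80 replicates 1 to 5, 1, 0, 2, 1 and 1 counts in PS20 replicates 1 to 5, and 1, 2, 2, 5 and 3 counts in control replicates 1 to 5. In CPM these were 0.101, 0.363, 0.447, 0.455 and 0.222 with PS80, 0.148, 0, 0.115, 0.112 and 0.120 with PS20, and 0.214, 0.211, 0.478, 0.367 and 0.410 in control. The PS20 libraries lay below all control libraries, as did those of 16.3% of all tested genes, and PS80 replicate 1 lay among the PS20 libraries.

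Pooled over a group, PLAT reached 0.314 CPM with PS80 (exact 95% Poisson interval 0.208 to 0.453), 0.102 CPM with PS20 (0.0332 to 0.239) and 0.331 CPM in control (0.176 to 0.566), intervals that cover counting error only. The mean with PS20 was 0.295 times the control mean, and an exact two-sided permutation test gave p = 0.00794, the smallest that 252 arrangements allow, or 0.0238 adjusted over the 3 comparisons. Leaving out any 1 PS20 library raised the adjusted p of the exact test to 0.0714. Fitted by edgeR without the filter on low counts, the log2 fold change was -1.61 with an adjusted p of 0.147. PS80 and control did not separate (ratio of means 0.945, exact permutation p = 0.825). PS80 exceeded PS20 by a ratio of 3.21, with an exact permutation p of 0.0397 and 0.0595 after adjustment over the 3 comparisons.

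SERPINE2, whose product inhibits urokinase, tPA, plasmin and thrombin, stood in the opposite order to PLAU between the polysorbates. It had 1.21, 1.57, 0.447, 1.59 and 1.06 CPM in PS80 replicates 1 to 5, 1.33, 2.84, 2.76, 2.12 and 2.16 CPM in PS20 replicates 1 to 5, and 1.50, 1.68, 2.39, 1.32 and 1.78 CPM in control replicates 1 to 5. PS20 replicate 1 lay within the range of the PS80 libraries, and the other 4 PS20 libraries lay above it. The means were 1.18 ± 0.467 CPM with PS80, 2.24 ± 0.608 CPM with PS20 and 1.73 ± 0.405 CPM in control (SD, n = 5 each), so that control lay between the polysorbates.

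SERPINE2 was lower with PS80 than with PS20 by 0.86 ± 0.25 SE on the log2 scale, or 1.82-fold higher with PS20 (log2 difference -0.86, interval -1.37 to -0.35, edgeR adjusted p = 0.00957). In that comparison 17.3% of all tested genes were called lower. This call held without each single library, with adjusted p up to 0.0468. Within replicates 3 to 5 the difference was -1.17 and passed the test, and within replicates 1 and 2 it was -0.52 (edgeR adjusted p = 0.433). Neither polysorbate separated from control by test, with log2 fold changes of -0.39 ± 0.27 SE for PS80 (edgeR adjusted p = 0.290) and 0.47 ± 0.27 SE for PS20 (interval -0.08 to 1.03, edgeR adjusted p = 0.154). The PS80 value was -0.15 within replicates 1 and 2 and -0.62 within replicates 3 to 5, and neither passed (edgeR adjusted p = 0.851 and 0.218).

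**Figure D2:**
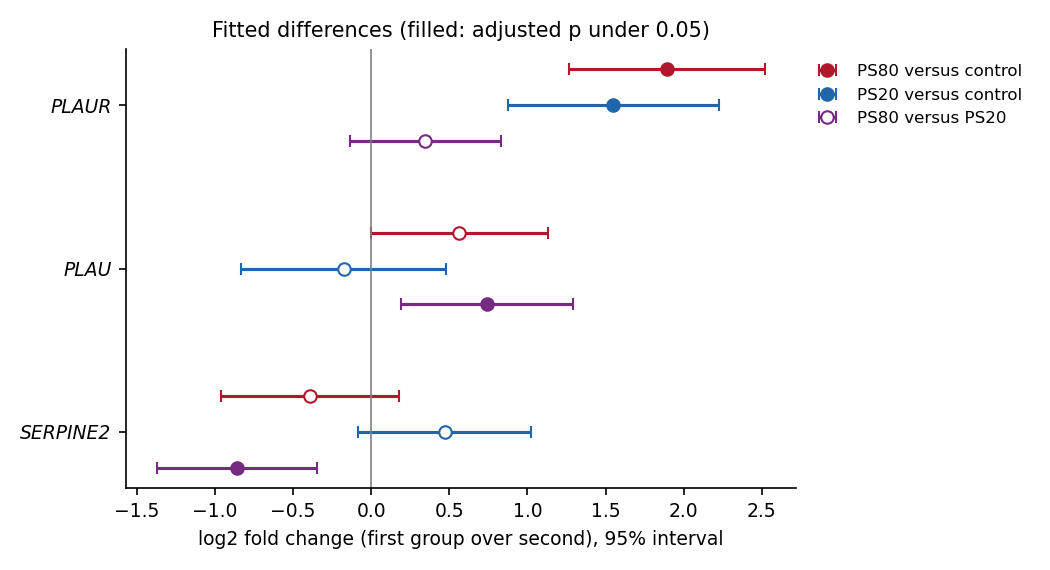
Log2 fold changes with 95% intervals of the 3 tested plasminogen activation genes in the 3 comparisons (first group over second), from edgeR's quasi-likelihood fit; filled points have an adjusted p under 0.05. PLAUR is filled in both comparisons with control, and PLAU and SERPINE2 are filled for PS80 against PS20 with opposite signs.

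The counting software moved with PS80. Version 2.0.3 of the counting program made the tables of PS80 replicates 1, 3, 4 and 5, and version 2.0.0 made the other 11, so the version and the exposure cannot be told apart in those 4 libraries. In PS80 replicate 2, the 1 PS80 library counted with version 2.0.0, PLAUR stood at 3.12 CPM, PLAU at 1.60 CPM and SERPINE2 at 1.57 CPM. With that library alone standing for PS80, and assumed to vary like the other groups, the log2 fold change of PLAUR over control was 2.20 and passed the test (edgeR adjusted p = 1.15e-04). The difference of PS80 from PS20 was then 0.77 for PLAU and -0.54 for SERPINE2, and neither passed (edgeR adjusted p = 0.169 and 0.245). That library was also the deepest of the study.

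Ratios within a library set urokinase against an inhibitor and its receptor without the scaling between libraries. Per kilobase of exon, the level of PLAU over that of SERPINE2 had a median of 3.69 with PS80 (lowest 3.08, highest 10.1), 1.18 with PS20 (1.01 to 1.76) and 1.52 in control (0.868 to 3.27). The PS80 libraries lay above all PS20 libraries, and all but PS80 replicate 2 lay above control replicate 5, the highest control library. This ratio restates, from the same counts, the opposite order of PLAU and SERPINE2 between the polysorbates given above. PLAU also passed the filter through PS80, where it is high. The separation is therefore a description and not used as support. The level of PLAUR over that of PLAU had a median of 1.12 with PS80 (0.623 to 1.32), 1.63 with PS20 (0.962 to 1.82) and 0.414 in control (0.284 to 1.32). Extreme ratios rested on few counts. The PLAU over SERPINE2 ratio of 10.1, in PS80 replicate 3, came from 10 PLAU and 3 SERPINE2 counts. The PLAUR over PLAU ratio of 1.32 in control replicate 1 came from 4 PLAUR and 2 PLAU counts. No counting error was computed for these ratios.

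**Figure D3:**
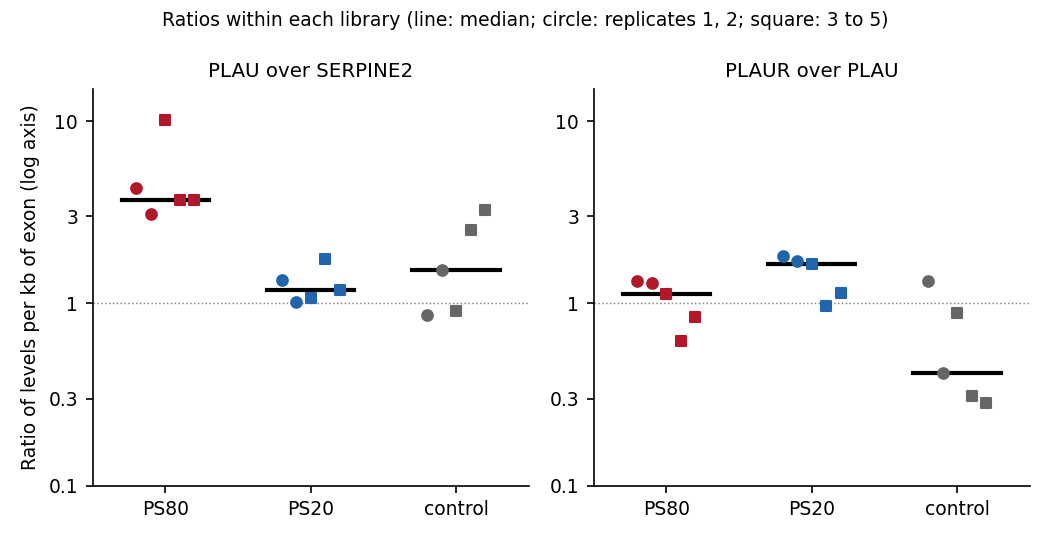
Ratios of levels per kilobase of exon within each library (log axis) for PLAU over SERPINE2 and PLAUR over PLAU, with PS80, PS20 and control side by side; points are libraries, lines are medians and the dotted line marks a ratio of 1. For PLAU over SERPINE2 the PS80 libraries lie at 3.08 and higher, while the PS20 libraries do not exceed 1.76.

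Plasminogen and its activators, PLAU included, gave 1 higher and 1 lower gene with PS80 and 2 higher and 2 lower genes with PS20, of 6 tested of 9 listed, where 17.4% and 16.0% of all tested genes were called higher and lower with PS80, and 24.4% and 23.9% with PS20. Plasminogen itself (PLG) had no count in any of the 15 libraries, which allows up to 0.0169 CPM over all of them. F12, coagulation factor XII, rose by 0.73 with PS80 and by 0.58 with PS20 on the log2 scale. HABP2, a serine protease that can cleave pro-urokinase, was lower with PS80 (-0.33) and had -0.08 with PS20. ST14, the membrane protease matriptase, which activates pro-urokinase, was lower with PS20 (-0.40) and had -0.11 with PS80. CTSB, cathepsin B, was lower with PS20 (-0.21). HPN, the membrane protease hepsin, had log2 fold changes of 0.49 with PS80 and 0.51 with PS20, and its PS20 call (edgeR adjusted p = 0.0446) was lost, with an adjusted p of up to 0.126, without control replicate 3, 4 or 5 or PS20 replicate 1 or 2. The median log2 fold change of the 6 tested genes, PLAU among them, was 0.26 with PS80 and -0.13 with PS20, against 0.00 and 0.01 over all tested genes.

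Of 12 inhibitors of the activators or of plasmin 7 were tested. SERPING1, the C1 inhibitor, which also blocks factor XII and plasmin, and the intracellular serpin SERPINB6 were the 2 that passed with each polysorbate, both as higher, where 17.4% of all tested genes were called higher with PS80 and 24.4% with PS20. SERPING1 rose by 0.84 with PS80 and by 0.95 with PS20 on the log2 scale, and SERPINB6 by 0.29 and 0.27. The SERPINB6 value for PS20 no longer passed without PS20 replicate 2 (edgeR adjusted p = 0.0589). SERPINB2, the gene of another serpin that inhibits urokinase, had no count in 15 libraries. SERPINA5 (protein C inhibitor, 7.78 CPM) and SERPINI1 (neuroserpin, 2.995 CPM) passed in no comparison, and SERPINF2 (alpha-2-antiplasmin, 0.272 CPM) was under the filter. SERPINE2 was the 1 inhibitor called between the polysorbates, where 35.5% of all tested genes were called.

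PLAUR belongs to a list of 15 surface molecules that dock or clear plasminogen and its activators, all tested. With PS80 6 were higher and 4 lower, and with PS20 7 were higher and 7 lower, against 17.4% and 16.0% of all tested genes with PS80 and 24.4% and 23.9% with PS20. PLAUR had the largest log2 fold change of the list with each polysorbate. It also had the lowest mean level of the list (1.73 CPM) and entered the test through its high groups alone. That rank is therefore not used as support. Members that bind plasminogen moved in both directions. S100A10, a plasminogen-binding subunit paired with annexin A2, fell by 0.33 with PS80 and by 0.99 with PS20 on the log2 scale, and ANXA2 stood at -0.20 and -0.46, both past the test. ENO1 (enolase 1) and KRT8 (keratin 8), which bind plasminogen when at the surface, fell with PS20 by 0.35 and 0.73. With PS80 they had 0.11 and -0.16, where neither passed. LRP1, a receptor that clears inhibitor complexes, had 0.33 with PS80 and 0.30 with PS20. Both LRP1 values passed in all libraries, but not without control replicate 3, 4 or 5, nor without PS80 replicate 1 or 4 for PS80 (edgeR adjusted p up to 0.0733) or PS20 replicate 1 or 2 for PS20 (up to 0.110). PLGRKT, a membrane receptor for plasminogen, chosen after its values were seen, rose by 1.17 with each polysorbate.

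Integrins and growth factor receptors are known partners of the urokinase receptor on the membrane. Of 10 tested partners, 3 were higher and 1 lower with PS80, and 3 higher and 2 lower with PS20, where 33.4% and 48.3% of all tested genes were called in either direction. ITGA5, the alpha chain of the fibronectin receptor, rose by 0.66 with PS80 and 0.57 with PS20 on the log2 scale. ITGA3 had 0.36 with PS80, which did not hold without control replicate 4 or PS80 replicate 2 (edgeR adjusted p up to 0.0686), and rose by 0.48 with PS20. ITGAV rose with PS20 (0.41) and had 0.14 with PS80, and ITGB5 fell with PS20 (-0.16). EGFR, the epidermal growth factor receptor, rose with PS80 (0.26) and had -0.15 with PS20.

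Of 14 tested substrates and downstream proteases, 5 were higher and 3 lower with PS80, and 8 higher and 4 lower with PS20, where 33.4% and 48.3% of all tested genes were called. The fibrinogen chain genes FGA and FGG, whose product is the precursor of fibrin, fell by 0.87 and 0.96 with PS80 and by 1.17 and 1.16 with PS20 on the log2 scale. TIMP3, an inhibitor of matrix metalloproteinases, rose by 0.36 and 0.39. MET, the receptor of hepatocyte growth factor, rose with PS20 (0.32) and had 0.02 with PS80, and F2RL1, a protease-activated receptor, rose with PS20 (0.27) and had 0.18 with PS80. The F2RL1 value for PS20 was 0.08 to 0.41 over 10 alternative settings and did not pass in all of them.

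The AP-1 and ETS factors, families that bind the motifs shown in the PLAUR and PLAU windows, had 7 higher and 1 lower of 10 tested with PS80 and 6 higher and 1 lower with PS20. Of all tested genes 17.4% were called higher and 16.0% lower with PS80, and 24.4% and 23.9% with PS20. Their median log2 fold change was 0.48 with PS80 and 0.36 with PS20, against 0.00 and 0.01 over all tested genes. The list was chosen with earlier results of these data known and includes FOSL1. Its counts and medians are therefore descriptions and not used as support. ETV4 rose by 1.19 with PS80 and 0.74 with PS20, and ETS2 by 0.34 and 0.32. JUN rose with PS80 (0.45) and had 0.28 with PS20 (edgeR adjusted p = 0.0523). JUND rose with PS20 (0.51), and its 0.32 with PS80 did not hold without control replicate 1, 3 or 4 or PS80 replicate 3 or 4 (edgeR adjusted p up to 0.125). FOSL2 was lower with PS20 (-0.32), and its -0.17 with PS80 did not hold without control replicate 2 or PS80 replicate 3 or 5 (edgeR adjusted p up to 0.0831). FOSL1, chosen after its values were seen, rose by 1.73 with PS80 and 1.20 with PS20. Whether any of these factors bears on PLAUR, PLAU or SERPINE2 was not tested.

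**Figure D4:**
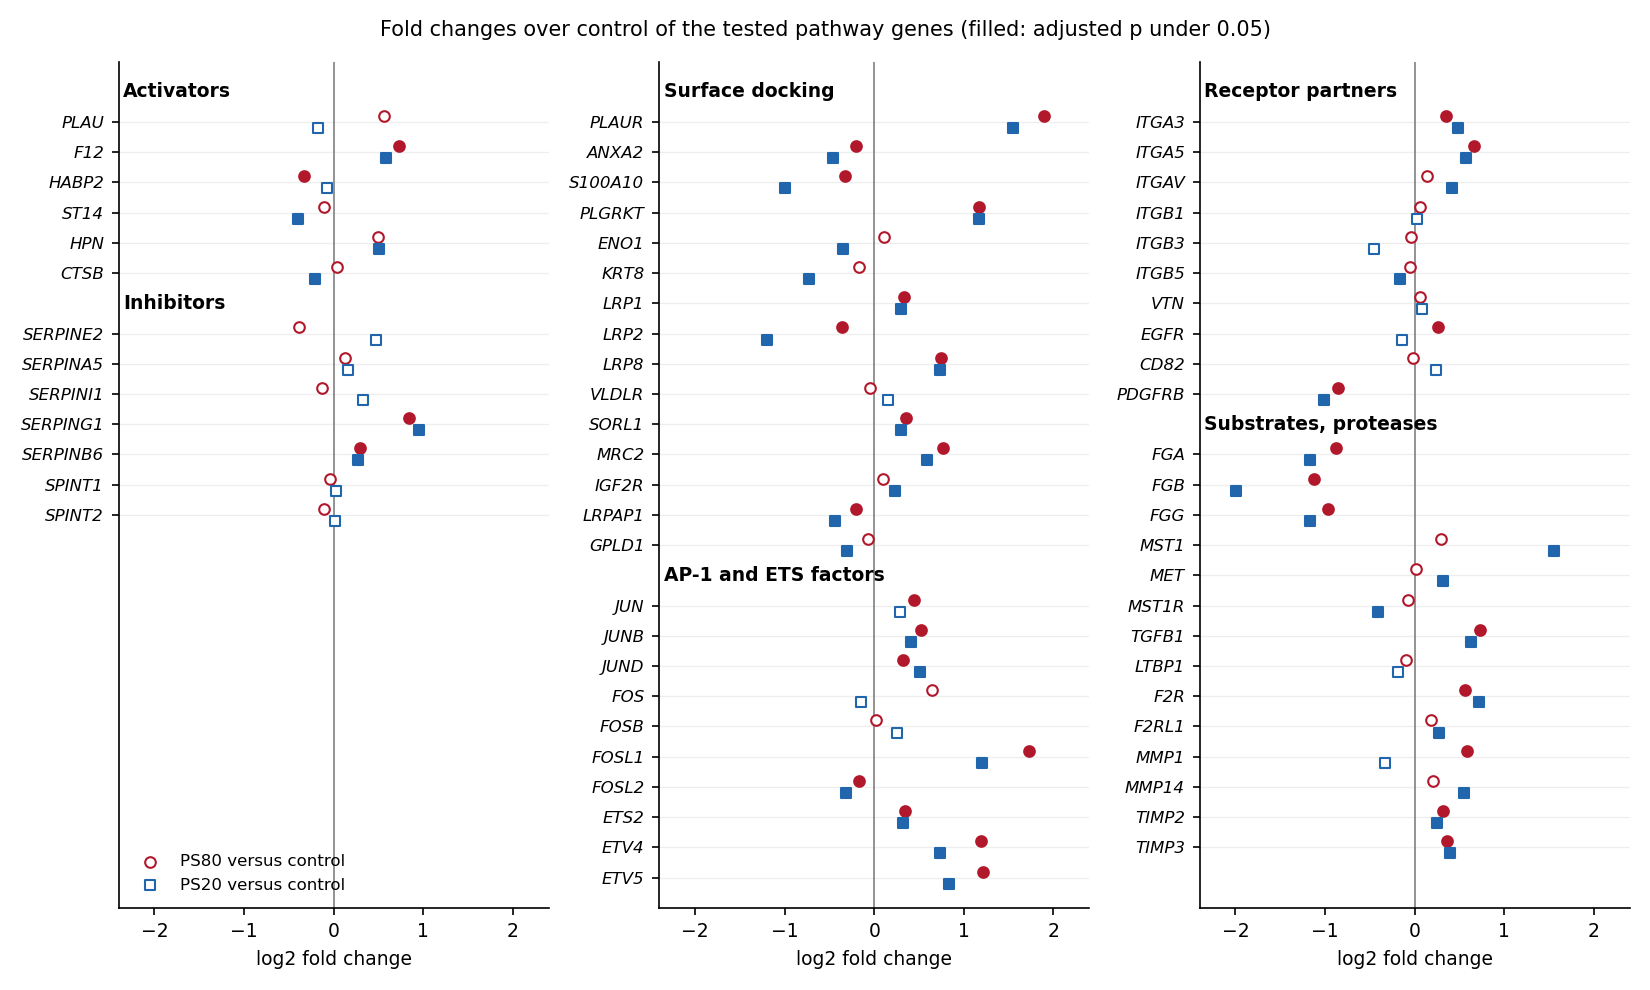
Log2 fold changes over control with PS80 (circles) and PS20 (squares) of every tested gene of the 6 pathway lists; filled symbols have an adjusted p under 0.05 by edgeR. PLAUR stands at 1.90 and 1.55, and S100A10, ANXA2, FGA and FGG lie left of 0 with both polysorbates.

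The genes whose log2 CPM followed PLAUR most closely over the 15 libraries, among 9873 genes with at least 5 CPM, were ADA, ITGA5 and HMGA1, with Pearson's r of 0.947, 0.942 and 0.940. After removal of the group means, their r was 0.754, 0.671 and 0.669. For PLAU they were PSMG3, KPTN and NACC1, with r of 0.848, 0.848 and 0.845. For SERPINE2 they were KLHL26, HEMK1 and SPIN3, with r of 0.835, 0.808 and 0.781, and of 0.808, 0.668 and 0.592 after that removal. The libraries differ in depth and replicate set, and these values, picked as the highest of 9873 genes, are descriptions without a test.

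Markers bore on which cells gave these values. Epithelial markers summed to 9850 to 10509 CPM with PS80, 7963 to 8716 CPM with PS20 and 9539 to 11465 CPM in control, with KRT20 at 0 and CDX1 and LGALS4 under 1 CPM in each group. Of 9 fibroblast markers COL1A2, DCN, THY1 and FAP were under 1 CPM, and the list summed to 160 to 209 CPM with PS80, 155 to 170.3 CPM with PS20 and 192 to 206 CPM in control, most of it COL1A1, COL3A1, PDGFRA and PDGFRB. Of 7 endothelial markers 6 were under 1 CPM and TEK was at 0, with sums of 11.2 to 16.2, 10.2 to 13.97 and 4.30 to 11.8 CPM in PS80, PS20 and control. Of 9 blood cell markers 6 were under 1 CPM, FCGR3B and S100A8 were at 0, and sums were 31.0 to 35.6, 33.2 to 39.6 and 24.9 to 31.2 CPM in PS80, PS20 and control. The share of counts on mitochondrially encoded genes was 1.45% to 2.97% with PS80, 2.03% to 2.58% with PS20 and 1.50% to 1.91% in control, so that every PS20 library lay above every control library, and PS80 replicate 2 was the highest. The epithelial sums of the PS20 libraries lay below those of all PS80 and control libraries, but the list moved both ways. With PS20 against control, KRT8 (-0.73), KRT18 (-0.61), KRT19 (-0.50) and VIL1 (-0.29) were called lower on the log2 scale. CDH1 (0.12) and CDX2 (0.37) were called higher, and EPCAM (0.07) was not called. The part of mitochondrial RNA and of these markers in the values of PLAUR, PLAU, PLAT and SERPINE2 was not tested. In these bulk samples, fewer cells that carry an RNA and less of it per cell cannot be told apart.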

How the data were processed

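RNA was measured in 15 Caco-2 libraries, prepared by poly(A) selection according to the labels. The deposited values are raw read counts per gene, 1 table per library, not normalized. Per the file headers, featureCounts 2.0.0 (11 libraries) or 2.0.3 (4 libraries) counted reads of mapping quality 10 or more on GENCODE release 42, without strand or paired-read settings. The submitters' processing notes also name cutadapt, STAR 2.7.9a, DESeq2 1.32.0 and GRCh38. Symbols were paired with 62672 of 69215 gene identifiers (90.5%) through the supplied gene name table. The headers show no option for reads that overlap several genes.

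Total counts ranged from 4183096 to 42271053 (median 8829612). The group tests were run in edgeR 4.0.16 under R 4.3.3 (filterByExpr with a minimum count of 10 and total of 15, TMM factors 0.978 to 1.015, quasi-likelihood test, 1 term per group over all 15 libraries, Benjamini-Hochberg adjusted p under 0.05 over 12769 genes). PLAT was tested by exact permutation of CPM in Python 3.11.15 with scipy 1.17.1, and figures were drawn with matplotlib 3.10.9. Alternatives used DESeq2 1.42.0, limma 3.58.1, other scalings and filters, subsets of libraries and a replicate block. Log2 CPM for likeness used a prior count of 2. On counts simulated for PS80 against control, the edgeR step called 97 of 100 genes changed 2-fold and 84 of 98 changed 1.5-fold, and 6 of 12441 unchanged genes. The changed genes were drawn from all tested genes, of which 7.46%, 2.59% and 7.32% lay below PLAUR, PLAU and SERPINE2 in level. The simulation therefore does not give the power for these scarce members.

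The members and lists were chosen with earlier results of these data known. From each list, up to 5 genes were named, those with the highest mean CPM that passed in at least 1 comparison, plus the serpins SERPINB2, SERPINA5, SERPINF2 and SERPINI1 at any level. A further inhibitor gene is not reported here. For likeness, the 3 genes with the highest r were named.

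Replicate numbers in the titles are shared between groups. For PS80 and control, same-numbered libraries deviated together from their group means in all 5 pairs (correlations 0.102 to 0.304). Of the 5 PS80 libraries, 3 correlated best with the control library of their own number. The same held for 4 of the 5 PS20 libraries against control and for 3 of the 5 PS80 libraries against PS20. For PS20 and control the correlations were -0.0264 to 0.248, and for PS80 and PS20 0.0741 to 0.290. Between different numbers they averaged -0.0415, -0.0260 and -0.0384 in these 3 comparisons. The labels do not say whether same-numbered libraries are pairs. The main fit treated every comparison as unpaired, and the replicate block was an alternative. No 2 libraries of a group agreed within sampling noise (chi-square per degree of freedom 1.69 to 40.3 over 30 pairs).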

Additional observations from a re-analysis of the deposited data

Results flagged for a closer look

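Of 99 groups of 5 libraries examined (33 genes in 3 groups), 2 had 1 library far from the other 4, where chance gives about 1 in 20. PLAT stood at 0 CPM in PS20 replicate 2, against 0.112 to 0.148 CPM in the other PS20 libraries, a difference of 0 counts from 1 or 2 counts. MET stood at 275 CPM in control replicate 2, against 249.98 to 255 CPM in the other control libraries.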

How the results depend on the processing

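PLAUR kept its direction and its call against control in every alternative run, with log2 fold changes of 1.44 to 2.32 for PS80 and 1.40 to 1.65 for PS20, and of 1.74 to 2.04 and 1.39 to 1.63 when single libraries were left out. PLAUR between PS80 and PS20 ranged over 0.18 to 0.50 without single libraries and was -0.092 in replicates 3 to 5. PLAU between PS80 and PS20 passed no more with no filter (0.78), in DESeq2 (0.76), in replicates 1 and 2 (1.07), in replicates 3 to 5 (0.55) or with only version 2.0.0 (0.77), and spanned 0.65 to 0.85 without single libraries. PLAU against control spanned 0.43 to 0.87 for PS80 and -0.31 to 0.13 for PS20 without single libraries. It was 0.13 without control replicate 5 and 0.14 in replicates 1 and 2 for PS20. The log2 ratio of PLAT means for PS20 over control was -1.52 in replicates 1 and 2 and -1.85 in replicates 3 to 5, subsets too small for an exact test to pass, and spanned -1.95 to -1.44 without single libraries. Its log2 fold change fitted by edgeR with no filter was -1.61 and did not pass. PLAT for PS80 over control was 0.13 in replicates 1 and 2 and spanned -0.25 to 0.15 without single libraries, above 0 without control replicate 3 (0.08) or 5 (8.75e-04) or PS80 replicate 1 (0.15) or 5 (0.02). PLAT for PS80 over PS20 spanned 1.36 to 1.91 and passed without PS80 replicate 1. SERPINE2 between PS80 and PS20 was -0.52 in replicates 1 and 2 and -0.54 with only version 2.0.0, neither past the test, and spanned -1.05 to -0.75 without single libraries. SERPINE2 over control spanned -0.57 to -0.28 for PS80 and 0.35 to 0.58 for PS20 without single libraries. The causes were not tested, except that subsets hold fewer libraries.

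Genes called for PS80 against control numbered 2025 in replicates 1 and 2, 2816 with only version 2.0.0 and 3566 to 4322 without single libraries, against 4266. For PS20 against control they numbered 3116 in replicates 1 and 2 and 5608 to 6335 without single libraries, against 6163. For PS80 against PS20 they numbered 1397, 2351 and 3840 to 4694, against 4527. The replicate block changed no call of PLAUR, PLAU or SERPINE2. With it PLAUR stood at 1.83 for PS80 and 1.49 for PS20, PLAU at 0.74 between the polysorbates and SERPINE2 at -0.89. It raised the genes called to 5160, 6871 and 5451. PLAT could not be fitted in DESeq2, limma, the block, the 10-library fits or with only version 2.0.0, nor could PLAU in the 10-library fit of PS20 and control. For the pathway genes named by the rule above 82 of the alternative values no longer passed, 1268 kept their side, and 0 turned direction. Some calls against control given above without a loss did not pass in all 10 alternative settings. With PS80 these were HABP2, SERPINB6, ANXA2, EGFR, FGA, FGG and JUN. With PS20 they were F12, ITGB5, F2RL1 and JUND, and SERPINB6 again. At 0 to 15 counts per library, depth limits PLAT most.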
